A study of Mus musculus with 20 samples.

Results

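The genes described here encode the T cell receptor's CD3 signalling chains and the molecules that work beside them: Cd3d, Cd3e, Cd3g, Cd247, the coreceptors Cd4 and Cd8a, the surface proteins Cd2 and Cd5, the kinase Lck and the interleukin-7 receptor chain Il7r. They were found by symbol in the deposited table, 10 genes of 46744 rows, with 1 row each. The row of Cd247 also carries the symbol Gm16565 and that of Lck the symbol Mir8119. RNA came from total skin of C57BL/6 mice in 20 samples of 6 groups. The 4 control groups, of genotype Sod2+/+, were 5 samples aged 50 days, 2 aged 100 days, 3 aged 300 days and 4 aged 700 days. The other 2 groups carried a conditional knockout (cKO; genotype Sod2-/-), with 3 samples aged 100 days and 3 aged 300 days. Sod2 encodes the mitochondrial superoxide dismutase. The labels name neither the Cre driver nor the cells in which Sod2 was deleted, and they do not say whether controls carry other alleles.

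The table holds 1 FPKM value (fragments counted per gene, divided by the gene's length and by the library's mapped reads) for each gene in each group, as the authors made it. With no value per sample, no spread, error or test can be given, so neighbours in any order of levels cannot be set against their spread, and the read depth is unknown. The CO-Skin title prefix covers the 50-day and 700-day samples and the S2-Skin prefix the rest. Log2 ratios of (FPKM + 1) were taken within a prefix only, and a gene counts here as higher or lower once its ratio reaches 1 in size. The knocked-out gene, Sod2, had 27.7 FPKM in the 100-day controls and 17.6 in their cKO counterparts, then 23.5 and 16.8 FPKM in the 300-day pair. FPKM totals ranged from 496936 to 692242. Xist was at least 1141 FPKM in the 50-, 100- and 300-day controls and at most 17.2 FPKM in the 700-day controls and both cKO groups. Uty, Kdm5d, Eif2s3y and Ddx3y, which are Y-linked, were at most 0.347 FPKM in the former and at least 14.7 FPKM in the latter. Genotype at either age, and 700 against 50 days, therefore cannot be told apart from this sex-linked difference.

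As background, the T cell receptor has no signalling tail of its own. Its chains pair with CD3 delta, epsilon, gamma and zeta (the last from Cd247), whose tails are phosphorylated by LCK, a kinase that the coreceptors CD4 and CD8 bind. Mouse skin holds gamma delta T cells in the epidermis, most of which carry CD3 but neither coreceptor, and alpha beta T cells in the dermis. CD2 binds CD48 on other cells and CD5 dampens receptor signalling. IL7R with the common gamma chain carries the survival signal of interleukin-7. Several of these genes are also used outside T cells: Cd247, Cd2 and Lck in natural killer cells, Cd5 in some B cells, and Il7r in innate lymphoid cells.

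All 10 genes are protein coding. In the GRCm38 assembly (mm10; GENCODE M21) Cd3g, Cd3d and Cd3e lie side by side on chromosome 9, from 44969572 to 44980431, from 44981786 to 44987339 and from 44998740 to 45009627. Cd3g and Cd3d are read away from each other, with 1355 bases between their annotated starts. Cd247 lies on chromosome 1 from 165788681 to 165877277, Cd2 on chromosome 3 from 101275899 to 101287939, Lck on chromosome 4 from 129548344 to 129573641 and Il7r on chromosome 15 from 9505788 to 9530176. Cd8a and Cd4 lie on chromosome 6, from 71373427 to 71379173 and from 124864692 to 124888221, and Cd5 on chromosome 19 from 10717116 to 10739002. The span of Cd247 overlaps Gm16565 on its own strand and the protein-coding gene Pou2f1 on the other. On that other strand Cd247 also overlaps Gm23402, Gm32999, Gm37856 and Gm37469. The span of Cd3e overlaps the antisense transcript Gm48719 and, on its own strand, Gm48720, and Lck contains Mir8119. No source used here says whether the authors counted by strand, so reads of these overlapping genes cannot be told apart.

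The promoters of the 3 CD3 genes of chromosome 9 are shown because these neighbours differ in level and in how far the 300-day controls exceed the other groups, and that of Cd8a because it has one of the wider contrasts. Each runs from 250 bases before to 50 after the start in RefSeq's table (GRCm38.p6), 5′ to 3′ on the gene's strand, with GGAA or its complement TTCC, the core letters read by ETS factors, in capitals. The spans are chr9:44981536-44981835 (plus strand) for Cd3d, chr9:44980382-44980681 (minus) for Cd3g, chr9:45009562-45009861 (minus) for Cd3e and chr6:71373177-71373476 (plus) for Cd8a.
Cd3d: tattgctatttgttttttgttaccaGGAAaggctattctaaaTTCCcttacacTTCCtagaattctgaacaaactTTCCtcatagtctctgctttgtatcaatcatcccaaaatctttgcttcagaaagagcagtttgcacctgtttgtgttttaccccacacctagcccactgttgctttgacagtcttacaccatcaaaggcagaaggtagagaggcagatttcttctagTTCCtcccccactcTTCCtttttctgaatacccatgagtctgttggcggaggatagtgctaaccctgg
Cd3g: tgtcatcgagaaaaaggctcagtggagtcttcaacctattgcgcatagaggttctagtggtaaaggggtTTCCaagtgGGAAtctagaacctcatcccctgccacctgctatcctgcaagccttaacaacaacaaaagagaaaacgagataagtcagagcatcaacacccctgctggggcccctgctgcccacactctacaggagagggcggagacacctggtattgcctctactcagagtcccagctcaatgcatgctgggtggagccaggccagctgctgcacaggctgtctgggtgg
Cd3e: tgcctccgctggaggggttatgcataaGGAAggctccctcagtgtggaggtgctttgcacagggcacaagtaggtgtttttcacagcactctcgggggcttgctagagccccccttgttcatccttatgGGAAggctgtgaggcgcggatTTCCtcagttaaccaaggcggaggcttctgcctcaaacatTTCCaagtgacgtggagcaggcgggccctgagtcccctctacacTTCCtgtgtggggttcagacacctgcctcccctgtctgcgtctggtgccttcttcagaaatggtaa
Cd8a: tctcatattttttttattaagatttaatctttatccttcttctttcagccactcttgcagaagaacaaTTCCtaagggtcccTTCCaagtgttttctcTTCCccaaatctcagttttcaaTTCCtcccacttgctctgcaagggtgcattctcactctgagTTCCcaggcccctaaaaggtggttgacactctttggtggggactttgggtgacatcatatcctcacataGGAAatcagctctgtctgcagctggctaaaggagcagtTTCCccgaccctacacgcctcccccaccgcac
The letters GGAA or TTCC occur 6 times in the window of Cd3d, 2 times in that of Cd3g, 5 times in that of Cd3e and 7 times in that of Cd8a. Of all 32851 promoters listed, 96.0% hold them at least once, with a median of 3, so their presence sets none of these windows apart. CTTTG or CAAAG, the core letters read by TCF and LEF factors, occurs 4 times in Cd3d, 1 time in Cd3e, 2 times in Cd8a and is not in the Cd3g window. It is in 53.9% of all promoters. CANNTG, the E-box, occurs 1 time in Cd3d, 2 times in Cd3e, 4 times in Cd3g and 3 times in Cd8a, and is in 72.3% of all promoters. TGTGGT or ACCACA, read by RUNX factors, is in none of these 4 windows and in 16.8% of all promoters. Of the 10 genes 8 were matched in the table, all but Cd2 and Cd4.

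Every one of the 10 genes had its highest FPKM in the 300-day controls. Cd3e, the chain around which the CD3 pairs assemble, was 4.51 FPKM in the 50-day controls, 2.71 at 700 days, 0.777 in control and 1.08 in cKO skin at 100 days, and 5.89 in control and 1.06 in cKO skin at 300 days. Cd3g, which pairs with epsilon, was 16.8, 9.61, 2.50, 4.21, 21.2 and 5.94 FPKM in the same order of groups. Cd3d, the other partner of epsilon, was 0.881, 0.598, 0.171, 0.578, 3.59 and 0.339 FPKM. These 3 neighbouring genes thus shared the top group and the lowest one, the 100-day controls, while Cd3g stood above Cd3e and Cd3e above Cd3d in each group on this per-length scale. Cd247, the zeta chain with the longest signalling tail of the CD3 chains, was 4.01, 2.58, 1.67, 2.37, 9.20 and 1.62 FPKM, and was lowest in the 300-day cKO.

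The coreceptors had low values outside the 300-day controls. Cd4, which binds MHC class II, was 0.768, 0.770, 0.540, 0.837, 10.9 and 0.555 FPKM in the same order. Cd8a, which binds MHC class I, was 0.301, 0.596, 0.207, 0.225, 4.14 and 0.236 FPKM. Both were thus under 1 FPKM in 5 groups and several times that in 1. Cd8b1, the partner chain of Cd8a, was 0.107, 0.912, 0, 0.325, 8.32 and 0 FPKM, with the 100-day controls and the 300-day cKO listed at 0.

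Among the other surface and signalling genes Lck stood highest. It was 4.30, 6.30, 1.11, 2.92, 35.0 and 1.80 FPKM. Cd2 was 2.85, 2.71, 0.638, 0.723, 26.0 and 1.24 FPKM, and Cd5 0.463, 0.540, 0.248, 0.978, 4.40 and 0.573 FPKM. Il7r was 2.61, 1.50, 0.569, 0.591, 8.19 and 1.37 FPKM. Lck and Cd2 were the first and second highest of the 10 in the 300-day controls, whereas Cd3g was the highest in each of the other 5 groups. The 100-day controls, the group of 2 samples, were lowest for 9 of the 10 genes, all but Cd247.

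**Figure D1:**
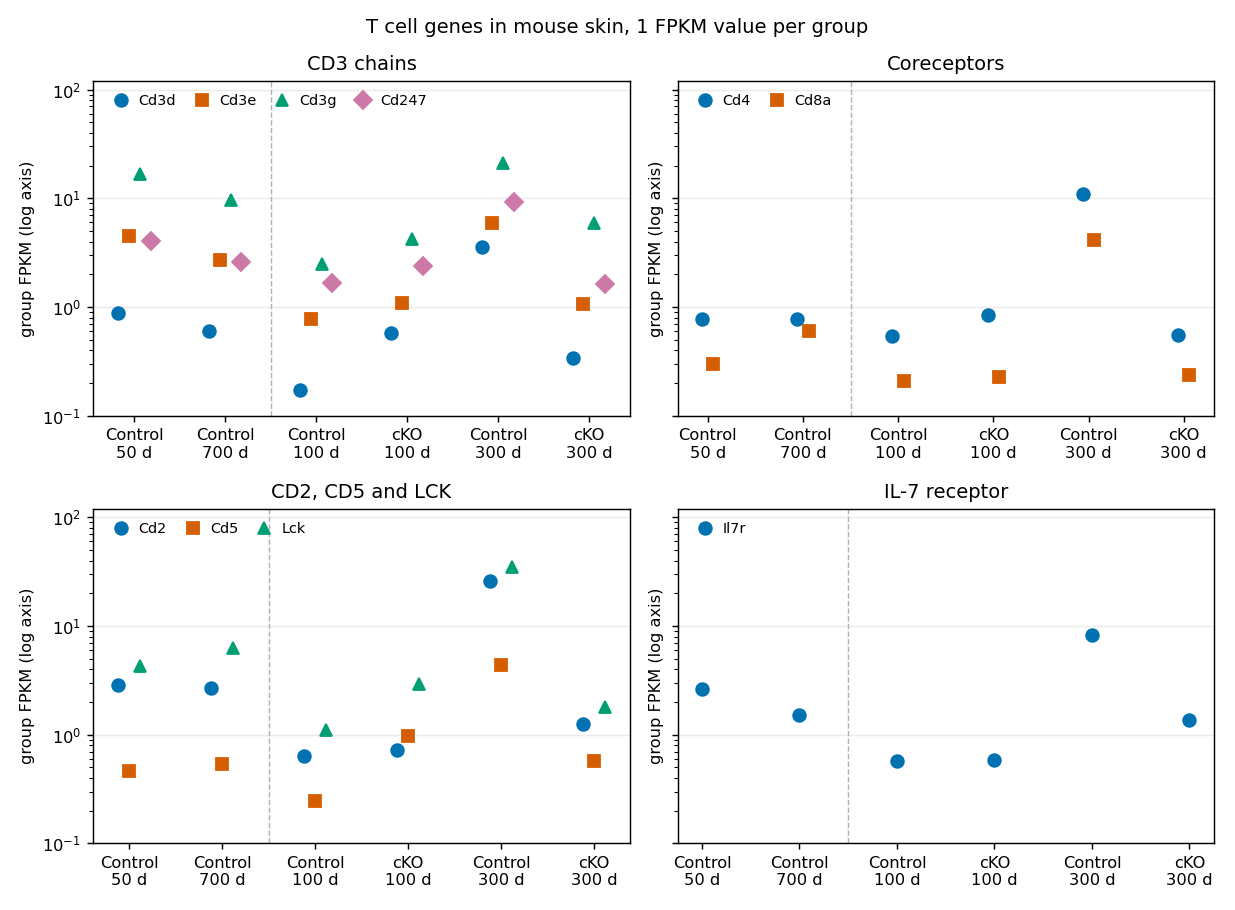
Group FPKM (log axis) of the 10 T cell genes in the 6 groups, 1 point per gene and group, with the CO-Skin groups left and the S2-Skin groups right of the dashed line. Each gene is highest in the 300-day controls, where the 10 genes lie between 3.59 and 35.0 FPKM; there are no error bars because the table has no value per sample.

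How far the 300-day controls exceeded the next highest group differed between the genes. The ratio of FPKM was 1.26 for Cd3g and 1.31 for Cd3e, both against the 50-day controls. It was 2.29 for Cd247, 3.13 for Il7r and 4.07 for Cd3d, also against the 50-day controls. It was 4.50 for Cd5 (against the 100-day cKO), 5.57 for Lck and 6.95 for Cd8a (both against the 700-day controls), 9.12 for Cd2 (50-day controls) and 13.1 for Cd4 (100-day cKO). Cd3g and Cd3e were thus nearly as high in the 50-day controls, while the coreceptors and Cd2 were not. Except for Cd5 and Cd4, these ratios cross the title prefixes, and a difference between the prefixes in processing was not tested. The libraries were depleted of ribosomal RNA with 1 of 2 kits, and the labels do not say which sample had which.

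**Figure D2:**
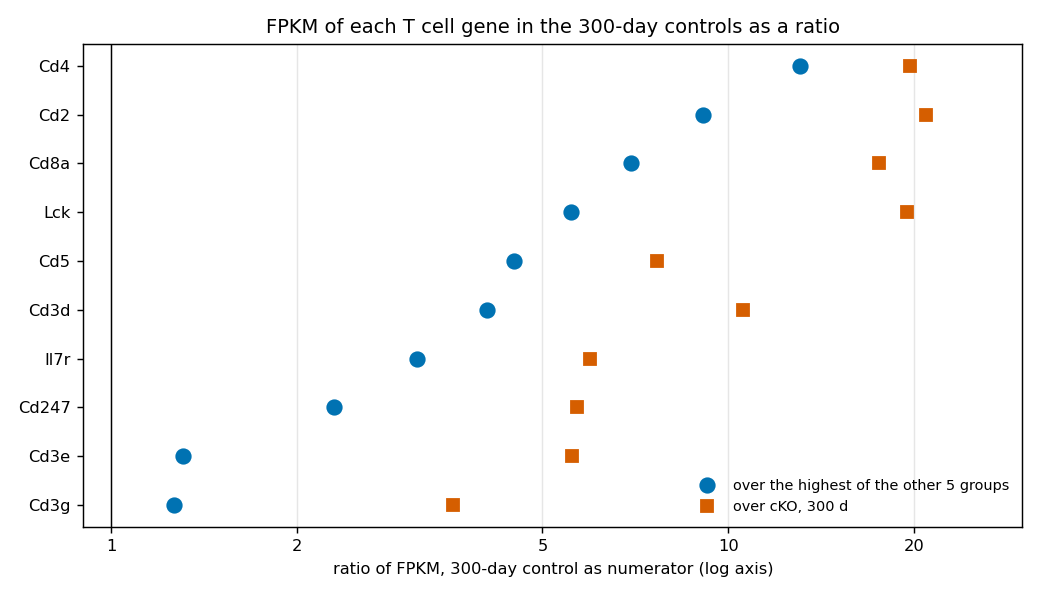
FPKM in the 300-day controls as a ratio (log axis) to the highest of the other 5 groups (circles) and to the 300-day cKO (squares), 1 pair of points per gene. Circles run from 1.26 for Cd3g to 13.1 for Cd4, and squares from 3.58 for Cd3g to 20.9 for Cd2.

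Ratios between genes within a group, which need no common scale across groups, showed the same unevenness. The FPKM of Cd4 was 0.170 times that of Cd3e at 50 days, 0.284 at 700 days, 0.694 and 0.774 in control and cKO skin at 100 days, 1.86 in control and 0.525 in cKO skin at 300 days. That of Cd2 was 0.632, 1.00, 0.821, 0.668, 4.41 and 1.18 times Cd3e in the same order. Lck was 5.95 times Cd3e in the 300-day controls, and its next highest ratio was 2.70, for the 100-day cKO. For Il7r the ratio to Cd3e was 1.39 for 300-day control skin, close to 1.30 for 300-day cKO skin. Cd247 instead peaked at 100 days, at 2.14 times Cd3e for control and 2.19 for cKO skin. Its ratio for 300-day control skin was 1.56. Cd3g kept a narrower range, from 3.21 to 5.62 times Cd3e over the 6 groups. Cd8a was 0.378 times Cd4 in the 300-day controls and between 0.269 and 0.774 in the other groups.

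The receptor chains that CD3 carries were read from the same table. Trac, the alpha chain constant region, was 0.705 FPKM at 50 days, 1.98 at 700 days, 0.836 and 0.361 in control and cKO skin at 100 days, and 24.8 and 0.439 in control and cKO skin at 300 days. Trdc, the delta chain constant region, was 3.66, 0.988, 0.680, 0.468, 1.02 and 1.03 FPKM. The FPKM of Trdc was thus 5.20 times that of Trac at 50 days and 0.0414 times in the 300-day controls. Tcrg-C1, a gamma chain constant region, was also highest at 50 days, at 6.51 FPKM, and was 1.74 and 2.36 FPKM in control and cKO skin at 300 days. Tcrg-C2 and Tcrg-C4, the other gamma chain constant regions listed, had other top groups. Tcrg-C2 was 1.94 FPKM at 700 days and 1.92 at 50 days. Tcrg-C4 was 0.827 FPKM in the 300-day controls and 0.671 at 50 days. The beta chain constant regions were measured beside them in both groups: Trbc1 was 4.41 FPKM at 50 days, 10.6 at 700 days, 0.831 and 2.18 in control and cKO skin at 100 days, and 21.4 and 3.49 in control and cKO skin at 300 days. Trbc2 was 13.7, 19.3, 5.09, 2.96, 26.7 and 6.92 FPKM in that order. Reads of Trbc1 and Trbc2 can be split between near-identical copies. At 50 days each of the alpha, beta, gamma and delta genes thus had a value above 0, with Trbc2 the highest of the 7 named.

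At 300 days all 10 genes were lower in the cKO by at least the size counted. Of the 12664 named genes whose mean was at least 1 FPKM, 5.24% were lower and 1.96% higher, and of all 20665 named genes 3.98% were lower. Log2 ratios ran from -3.69 for Lck and -3.59 for Cd2 to -1.74 for Cd3e and -1.68 for Cd3g, with a median of -1.96 against -0.01 over the 12664 genes. In FPKM, the controls were 20.9 times the cKO for Cd2, 19.7 times for Cd4, 19.5 times for Lck, 17.6 times for Cd8a and 3.58 times for Cd3g. Cd4 and Cd8a had log2 ratios of -2.94 and -2.06, Cd247 and Il7r -1.96 and -1.95, and Cd5 and Cd3d both -1.78. The pseudocount compresses the ratios of genes with low values. In whole skin, fewer T cells and less RNA per cell cannot be told apart. Of the 10 genes 9 passed the filter, and 6 would have without the 300-day controls, so the count is given over all 10.

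**Figure D3:**
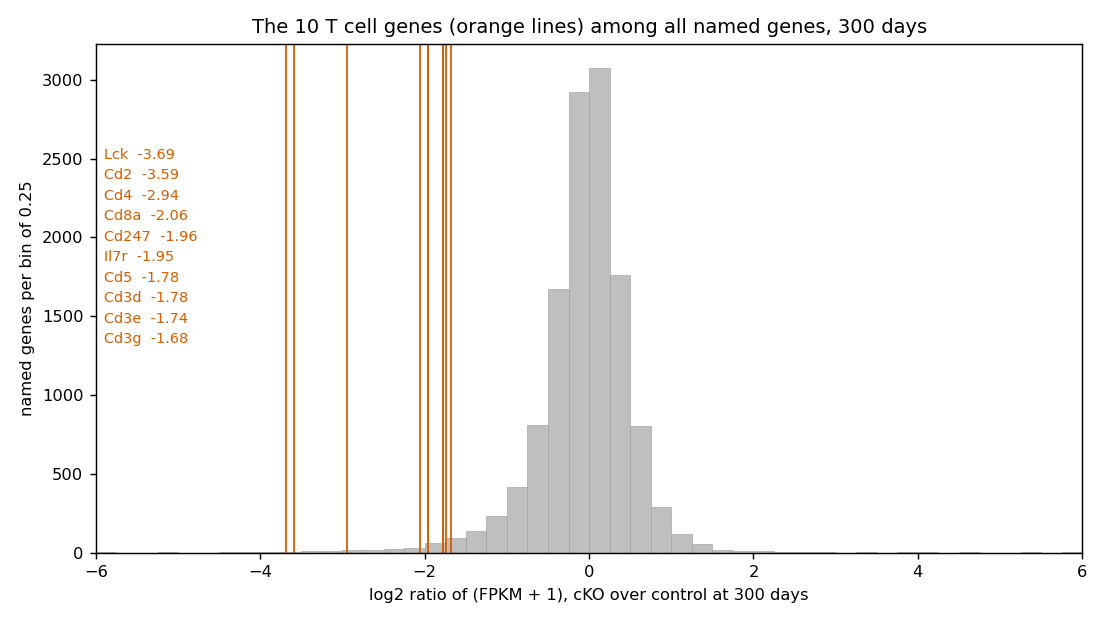
Log2 ratio of (FPKM + 1) of cKO over control skin at 300 days for the 12664 named genes whose mean reached 1 FPKM (grey bars, number of genes per bin) and for the 10 T cell genes (orange lines, values listed). The T cell genes lie between -3.69 and -1.68, in the lower tail; values beyond the axis are counted in the end bins, and Cd8a is not among the grey genes because its mean is 0.951 FPKM.

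The 300-day cKO had levels of these genes like those of the remaining groups. Its FPKM lay within the range of the 4 groups of other ages for 9 of the 10 genes, and below it for Cd247. Between the ages, all 10 genes were higher in control skin at 300 than at 100 days by at least the size counted, against 3.55% of named genes higher and 1.1% lower. Log2 ratios ran from 1.94 for Cd247 to 4.10 for Lck, with a median of 2.33. Xist and the Y-linked genes placed these 2 control groups on the same side. In cKO skin, 300 against 100 days, none of the 10 was counted as higher or lower. Of named genes 2.47% and 1.58% were, so this does not set the 10 apart. Cd3d, Cd5, Cd4 and Cd8a could not have been counted, since both groups were under 1 FPKM and the pseudocount was 1. The ratios of the 10 genes lay between -0.49 for Lck and 0.58 for Il7r. These comparisons share groups with the one between genotypes, so they are the same values seen from another side.

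At 100 days none of the 10 genes was counted as higher or lower between genotypes. Of named genes 2.3% and 4.34% were, so this does not set the 10 apart. Cd3d, Cd5, Cd4 and Cd8a, under 1 FPKM in both groups, could not have been counted with a pseudocount of 1. Lck was 2.92 FPKM in the cKO and 1.11 in controls (log2 ratio 0.90), Cd5 0.978 against 0.248 (0.66), Cd3g 4.21 against 2.50 (0.57) and Cd3d 0.578 against 0.171 FPKM (0.43). All 10 ratios were above 0, down to 0.02 for Cd8a and Il7r, but with FPKM rescaled to equal totals these last 2 were -0.00 and -0.04. With a pseudocount of 0.1, 3 genes were counted as higher, Cd5 (1.63), Lck (1.32) and Cd3d (1.32). The difference between the genotype differences, 300 minus 100 days, was at or below -1 for all 10 genes, from -4.58 for Lck to -1.97 for Cd3e, against 4.96% of named genes, with 3.92% at or above 1.

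In control skin at 700 against 50 days none of the 10 was counted as higher or lower. Of named genes 0.679% and 3.28% were, so this does not set the 10 apart. Cd3d, Cd5, Cd4 and Cd8a, under 1 FPKM at both ages, could not have been counted with a pseudocount of 1. The CD3 chains had ratios below 0, at -0.75 for Cd3g, -0.57 for Cd3e, -0.49 for Cd247 and -0.24 for Cd3d, and Il7r was at -0.53. Lck was at 0.46 and Cd8a at 0.30, and Cd5, Cd4 and Cd2 lay at 0.07, 0.00 and -0.05. Trdc was lower at 700 days (log2 ratio -1.23) and Trbc1 higher (1.10). Of these values only those of the receptor chains Trdc and Trbc1 reached the size counted.

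**Figure D4:**
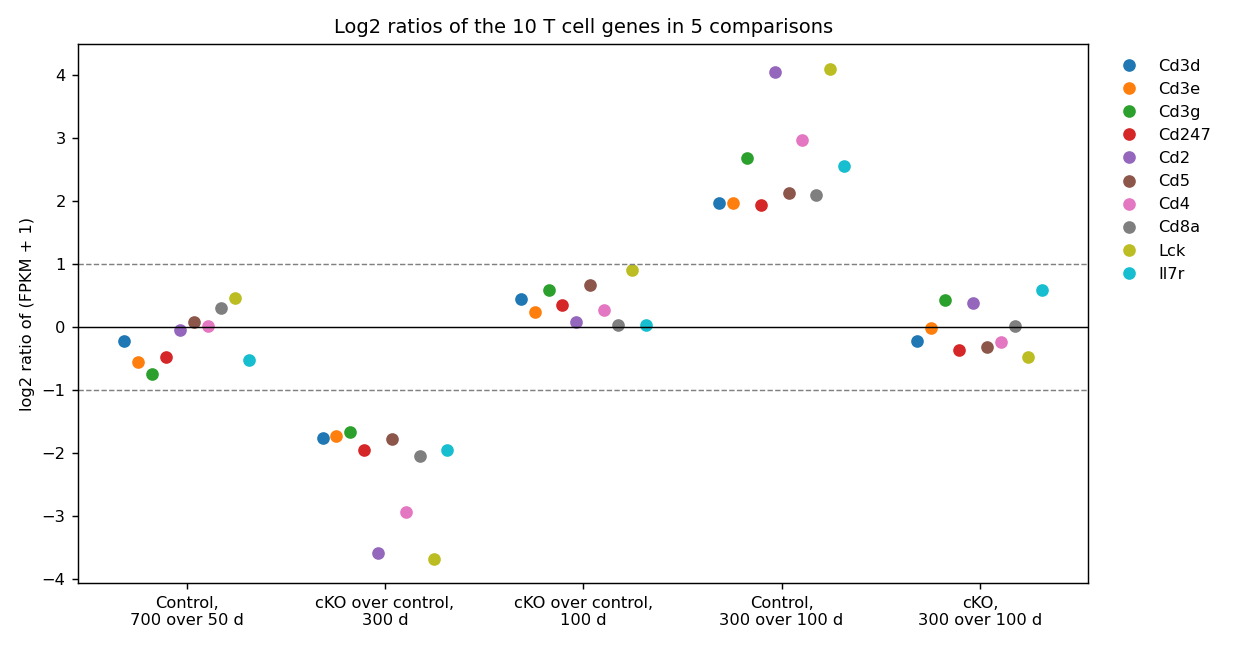
Log2 ratio of (FPKM + 1) of each of the 10 T cell genes in 5 comparisons (1 colour per gene; dashed lines at -1 and 1, the size counted). The genes lie beyond the dashed lines in both comparisons that involve the 300-day controls, below in cKO over control and above in 300 over 100 days, and between the lines in the other 3; at 100 days all lie above 0 as deposited, and Cd8a and Il7r below 0 with equal totals.

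Genes that act next in the same pathway were mostly lower in the cKO at 300 days as well. Of 23 genes of proximal T cell receptor signalling, 18 of which passed the filter, 16 were lower in cKO and none higher, with a median of -1.49. Of all named genes without the filter, 3.98% were lower. Lat, the adaptor on which the signalling complex is built, was 0.812 FPKM in the cKO and 9.09 in controls (-2.48), and Zap70, the kinase that docks on phosphorylated CD3, 1.08 against 4.12 (-1.30). Ptprc, the phosphatase CD45 of all white blood cells, was 13.0 against 89.2 FPKM (-2.69), and the adaptor Skap1 1.13 against 11.7 (-2.57). Fyn, a kinase related to Lck that many cell types use, was 46.5 against 56.1 FPKM (-0.27). Lcp2 was listed at 0 in 4 groups, the 300-day ones among them, so its ratio of 0 has no meaning, though it stays in the 23 and their median. At 100 days none of the 23 was lower in cKO, and Lcp2 alone was counted as higher, at 5.33 against 1.74 FPKM.

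Of 11 costimulatory and checkpoint genes 5 were lower in cKO at 300 days (median -0.95), among them Cd28, the main costimulatory receptor, at 0.134 against 4.15 FPKM and Btla, an inhibitory receptor of B and T cells, at 0.291 against 10.5 FPKM. Of 8 further T cell surface genes 7 were lower (median -1.36). Of 5 genes of naive T cell traffic 3 were lower, with the chemokine receptor Ccr7 at 0.368 against 7.20 FPKM. Of 11 measured transcription factors used by T cells 3 were lower (median -0.32). Satb1 was 8.27 against 29.0 FPKM and Tcf7 5.18 against 12.5. Lef1, also used in hair follicles, was 49.3 against 28.9 FPKM (0.75), and Id3 24.3 against 13.4 FPKM (0.81). Of 11 effector and natural killer genes 4 were lower (median -0.60), with Ccl5 the lowest ratio at -3.84. Of the costimulatory and checkpoint genes 4 passed the filter, of the transcription factors 8 and of the effector and natural killer genes 6. Pdcd1, Lag3, Tigit, Tbx21, Eomes, Gzmb, Gzmk, Ncr1 and Ifng were under 1 FPKM in both 300-day groups. With a pseudocount of 1 these genes could not have been counted.

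The partners of these receptors differed among themselves. Il2rg, the common gamma chain that pairs with IL7R, was 3.43 FPKM in the 300-day cKO and 20.4 in its controls (-2.27). The ligand Il7 was 0.608 against 1.19 FPKM (-0.45), and Tslp, a ligand that uses IL7R with CRLF2, was 0.951 against 0.621 (0.27). Il7 thus did not reach the size counted, while both receptor chains of interleukin-7 did. Tslp, under 1 FPKM in both groups, could not have reached it with a pseudocount of 1. The ligands had low values, so the pseudocount compresses their ratios more than those of the receptor chains. Stat5a, which relays the signal, was 3.39 against 11.1 FPKM at 300 days. At 100 days Stat5a was 3.53 against 15.4 FPKM, while Il7r did not differ there by the size counted. Stat5b, a second relay gene, missed that size at both ages. It was 13.5 against 13.5 FPKM at 300 days (-0.0006) and 6.20 against 13.2 at 100 days (-0.98). Of 7 ligands of the coreceptors and CD2, 4 were lower in cKO at 300 days, namely Cd48 at 2.83 against 11.8 FPKM and the class II chains H2-Aa, H2-Ab1 and H2-Eb1, with log2 ratios of -1.75, -1.75 and -1.58. The class I genes H2-K1, H2-D1 and B2m had ratios of -0.58, -0.31 and -0.75.

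Markers of other cells were high in the 300-day controls as well. All 12 B cell genes were lower in cKO at 300 days (median -3.22), and their summed FPKM was 149.7 in the 300-day controls and between 3.64 and 6.18 in the other groups. Cd79a and Cd79b, signalling chains of the B cell receptor, were 5.89 and 14.7 FPKM there and at most 0.422 FPKM elsewhere. Among 8 genes of lymph node stroma and its vessels 3 were lower, with Glycam1, a mucin of high endothelial venules, at 73.6 FPKM in the 300-day controls and at most 0.515 FPKM elsewhere. Cxcl13 was 17.7 FPKM in the 100-day cKO, above its 11.1 in the 300-day controls. Fut7 was 1.25 FPKM in the 300-day controls and at most 0.164 FPKM elsewhere, and Chst4 was 0.518 and at most 0.0182 FPKM. Enpp2 was highest in the 100-day controls, at 25.5 FPKM. Ccl21a was listed at 0 in each group, and its near-identical copies can share reads, while Madcam1 and Ccl19 were at most 0.367 FPKM in any group. With a pseudocount of 1, Ccl21a, Madcam1, Ccl19 and Chst4 could not have been counted. All 10 macrophage genes were also highest in the 300-day controls, with a summed FPKM of 402 there and between 58.0 and 181 elsewhere.

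Simple epithelial genes, a list for simple and mammary epithelium that holds the keratins Krt8 and Krt19 and also Ltf and Wfdc2, were lower in cKO skin as well. All 9 measured were lower at 300 days (median -2.78), with a summed FPKM of 12.7 in cKO and 136 in control skin, and 8 of the 9 were lower at 100 days, where the sums were 27.5 and 452. In control skin 6 of the 9 were also lower at 700 than at 50 days, with sums of 7.51 and 48.7 FPKM. In each of these comparisons the group with low Xist had the lower sum, so genotype cannot be told apart from the sex-linked difference. Unlike the T cell genes, all 9 were highest in the 100-day controls. Of 6 mast cell genes none was counted as lower in cKO at 300 days, and of 7 measured dendritic and Langerhans cell genes 2 were (median -0.46). In a list of 8 genes used by epidermal gamma delta T cells 3 were lower at 300 days, and 4 had their highest FPKM at 50 days. Cd200r3 of this list, under 1 FPKM in both 300-day groups, could not have been counted. The part of the B cell, lymph node, macrophage and simple epithelial transcripts in the T cell differences was not tested, nor could it be asked whether 1 of the 3 control samples carries them. The lists differed at 50 days: the summed FPKM of the 10 T cell genes was 37.5 at 50 days and 129 in the 300-day controls, while that of the B cell genes was 6.18 and 149.7.

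**Figure D5:**
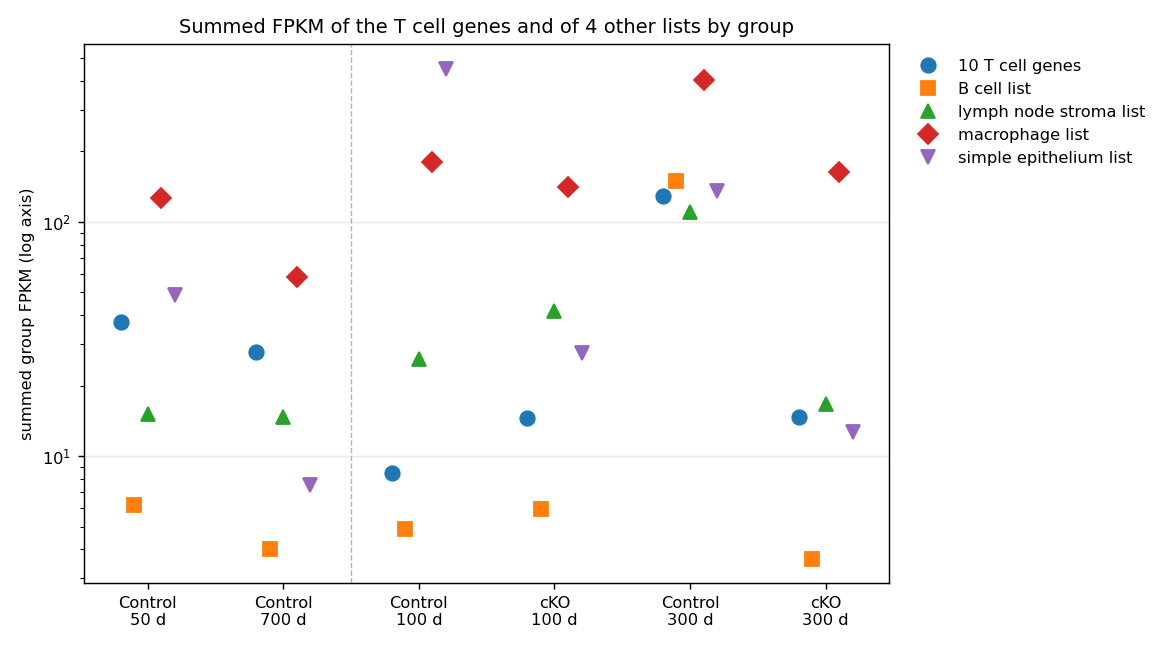
Summed group FPKM (log axis) of the 10 T cell genes and of 4 marker lists in the 6 groups, 1 point per list and group. The sums of the T cell, B cell, lymph node stroma and macrophage genes are highest in the 300-day controls, at 129, 149.7, 110.2 and 402 FPKM. That of the simple epithelial genes is highest in the 100-day controls at 452 FPKM. Glycam1 alone makes up 73.6 FPKM of the lymph node stroma sum, and 4 of the 8 genes of that list are highest in the 300-day controls.

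The genes with the most similar pattern were sought among 12245 others with 1 symbol and a mean of at least 1 FPKM, by Pearson's r of log2(FPKM + 1) with the mean of the 10 T cell genes over the 6 group values, of which 1 stands far above the rest. The 10 highest were Dennd1c (r = 0.996), Traf1 (0.992), Csk (0.991), Acap1 (0.991), Ly9 (0.989), Stap1 (0.985), Trim12a (0.984), Themis (0.983), Calhm2 (0.983) and Man2b1 (0.983). They differed in size of change: Acap1 was 0.874 FPKM in the 300-day cKO against 7.96 in its controls, and Csk, the kinase that restrains LCK, 8.13 against 13.2 FPKM. In all 53 genes had an r of at least 0.95. The r describes 6 values that share the 300-day controls and the prefixes, and is no test. Among the T cell genes themselves, r with the mean of the other 9 ran from 0.828 for Cd3g to 0.989 for Cd2. With the 300-day controls left out it was 0.954 for both Cd3g and Cd3e, 0.635 for Cd4, 0.618 for Cd8a and 0.0887 for Cd5, over 5 group values. The other 5 genes had values between 0.836 and 0.927. The r of the coreceptors and Cd5 was thus the lowest of the 10 outside that group. These 3 and Cd3d, whose r was 0.907, were under 1 FPKM in each of the 5 groups. Whether low values bear on r was not tested.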

How the data were processed

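Total skin RNA went through 1 of 2 ribosomal RNA removal kits into directional libraries, per the labels' protocols. The deposited values are FPKM, 1 per gene and group, made by the authors. HISAT2, Cufflinks and Cuffdiff with mm10 are named in the submitters' processing notes, with no versions. The gene annotation and how samples of a group were combined are not given in the sources used here. An exact 0 can be a failed estimate, since Malat1 is listed at 0 in the 50- and 700-day controls and is at least 6080 FPKM elsewhere.

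Log2 ratios of (group FPKM + 1) were then taken, counted at a size of at least 1, with no test because there is 1 value per group. Named genes were rows with 1 symbol left once predicted-gene, microRNA and pseudogene names were dropped (20665, of which 12664 had a mean of at least 1 FPKM). Where a symbol had several rows, that with the highest mean was used. The T cell genes, the 17 gene lists and the comparisons were chosen with earlier results of these data known. Genes named were the 10 T cell genes, up to 4 of each list by size of ratio, fixed landmark genes and the 10 nearest in pattern. Fyn, Lcp2, Tslp, H2-K1, H2-D1, B2m, Madcam1, Ccl19 and Chst4 were chosen after their values were seen. So were Tcrg-C2, Tcrg-C4, Stat5b and genes named only for being under 1 FPKM. Lef1 was named although 4 others of its list had larger ratios in size at 300 days. The planned description of protein sequence was not made. Promoters came from RefSeq's table, and positions from GENCODE M21. Counting was tested on simulated data. Results were recomputed with a pseudocount of 0.1 or 0.5, without the filter or with a minimum mean of 5 FPKM, after scaling groups to 1 median or to equal totals, and with rows of a symbol summed. Added after seeing the data were rows with 1 symbol only, genes at 0 left out and protein-coding genes only. Python 3.11.15, pandas 2.3.3, numpy 2.4.6 and matplotlib 3.10.9 were used.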

Additional observations from a re-analysis of the deposited data

How the results depend on the processing

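The filters, and summing the rows of a symbol, cannot change the values of the T cell genes, which have 1 row each. Under the 4 settings that can, both pseudocounts and both rescalings, 45 of 48 counts of these genes stayed within 1.5 times the reported count. The exceptions were cKO against control skin at 100 days, with 3 genes higher at a pseudocount of 0.1 and 1 at 0.5, and cKO skin at 300 against 100 days, with 1 higher (Il7r) at 0.1. All 10 were lower in cKO at 300 days and higher in control skin at 300 than at 100 days under each of these 4. No paired analysis was possible because the table has 1 value per group, and no sample could be left out.

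Counts over all named genes moved more. With a pseudocount of 0.1 they were 155 higher and 800 lower in old against young controls (as deposited 86 and 415), 409 higher in cKO at 300 days (248), 508 higher and 851 lower in cKO at 100 days (291 and 550), 232 lower in controls at 300 against 100 days (139), and 503 higher and 407 lower in cKO at 300 against 100 days (313 and 200). With a mean of at least 5 FPKM they were 164 higher and 304 lower in cKO at 300 days, 187 and 356 in cKO at 100 days, 179 and 79 in controls and 196 and 99 in cKO at 300 against 100 days, and 306 and 284 for the difference of genotype differences (496 and 628). With equal totals they were 155 higher and 498 lower in old against young controls, 293 and 884 in cKO at 100 days, 446 and 290 in controls and 325 and 331 in cKO at 300 against 100 days, and 783 and 697 for the difference of differences. That rescaling moved the median of all genes by -0.12 in cKO at 100 days, by -0.18 in controls at 300 against 100 days and by 0.10 in the difference of differences. For these moves the cause was not tested. Depth is unknown, so no limit can be given for genes under 1 FPKM.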
